A study of Mus musculus with 6 samples.

Results

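The Wnt ligands of the postnatal day 1 mouse cerebellum, with their receptors, antagonists and nearest intracellular partners, were followed as a set of 61 protein-coding genes. The rule picks members by gene name among the 54532 genes of the count table, and was set with earlier results of these data known. The names Wnt, Fzd, Sfrp, Dkk and Rspo followed by a number gave 41 genes, and 20 further genes were listed one by one, from the co-receptors *Lrp5* and *Lrp6* to β-catenin (*Ctnnb1*) and its partners. RNA was sequenced in bulk from cerebellum in 3 samples labelled as control littermates, genotype Tox3f/f without Cre, and in 3 mutant samples, genotype Nestin-cre;Tox3f/f. The labels do not say whether each sample was a separate animal. Both groups therefore carried the floxed *Tox3* allele, and every mutant but no control carried the Nestin-cre transgene, which drives Cre recombinase in the nervous system, so that the transgene and the deletion cannot be told apart. Libraries of both sexes were present in each group, but not in equal parts. Y-chromosome genes were at 275, 30.5 and 33.2 CPM (defined below) in the controls and at 220, 30.4 and 225 CPM in the mutants. They were thus high in control 1, mutant 1 and mutant 3, so that sex was partly confounded with genotype.

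The targeted gene *Tox3* was counted at 64.1, 62.9 and 64.3 CPM (counts scaled to a common library total) in the controls and at 55.2, 63.1 and 59.1 CPM in the mutants (log2 fold change −0.11, SE 0.06, edgeR adjusted p = 0.252). The groups overlapped, so the count over the whole gene did not check the labels, and every direction below takes the groups as the labels give them. The groups were far apart in *Atoh1*, which encodes the factor that defines granule neuron progenitors, with 32.6, 31.9 and 30.8 CPM in the controls and 0.576, 0.26 and 0.249 CPM in the mutants. The depth was 15391854 to 17178478 counts per library, at which 3 counts are at most 0.195 CPM. The CPM totals were normalized between libraries, and FPKM values, which are also divided by gene length, are used wherever levels of different genes are compared. Of the cerebellar markers listed, all 8 for Purkinje cells and 7 of 8 for granule neurons passed the filter on low counts. Because the tissue was sequenced in bulk, fewer cells of a type and less RNA per cell cannot be told apart for any gene below.

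Wnt proteins are lipid-modified signals. The acyltransferase Porcupine (*Porcn*) attaches the lipid and the carrier Wntless (*Wls*) brings the ligand to the cell surface, where it binds a Frizzled receptor together with LRP5 or LRP6. In the canonical branch this stops the destruction complex of APC, Axin and their kinases from marking β-catenin for degradation, and β-catenin then acts with LEF1 and the TCF factors on target genes. Secreted antagonists bind the ligand (the SFRP family, Frzb and WIF1) or the co-receptor (Dickkopf 1, 2 and 4), whereas R-spondins act through LGR receptors to spare Frizzleds from the ubiquitin ligases RNF43 and ZNRF3. In the developing cerebellum, Wnt1 is known for its part in setting up the midbrain and hindbrain border, and Wnt7a for its action on mossy fibre terminals.

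Promoter sequence was read for the called members from RefSeq (GRCm38.p6), which matched 39 of the 61 members and 6 of the 10 called ones. The 4 shown are those called members for which all 250 bases before the RefSeq start lie outside annotated exons: *Nkd1* and *Fzd7*, which were downregulated, and *Wnt6* and *Wls*, which were upregulated. They are shown so that promoters of genes that moved in the same and in opposite directions can be read side by side. Each runs 5′ to 3′ on the strand of the gene, which is the plus strand in all 4, and capitals mark the E-box CAGCTG.
Nkd1: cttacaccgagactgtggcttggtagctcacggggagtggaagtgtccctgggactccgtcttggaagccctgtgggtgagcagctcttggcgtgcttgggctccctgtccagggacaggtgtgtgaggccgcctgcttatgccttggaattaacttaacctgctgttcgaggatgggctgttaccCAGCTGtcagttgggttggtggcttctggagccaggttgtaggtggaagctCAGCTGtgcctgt
Fzd7: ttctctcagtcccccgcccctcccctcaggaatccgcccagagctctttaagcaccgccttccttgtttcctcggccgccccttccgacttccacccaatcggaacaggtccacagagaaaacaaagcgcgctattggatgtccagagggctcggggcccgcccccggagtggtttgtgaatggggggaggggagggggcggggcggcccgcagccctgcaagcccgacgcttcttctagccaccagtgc
Wnt6: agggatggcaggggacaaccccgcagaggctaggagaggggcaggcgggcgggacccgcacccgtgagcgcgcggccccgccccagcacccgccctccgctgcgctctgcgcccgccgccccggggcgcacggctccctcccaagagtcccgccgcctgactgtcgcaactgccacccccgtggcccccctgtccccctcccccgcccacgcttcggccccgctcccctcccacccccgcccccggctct
Wls: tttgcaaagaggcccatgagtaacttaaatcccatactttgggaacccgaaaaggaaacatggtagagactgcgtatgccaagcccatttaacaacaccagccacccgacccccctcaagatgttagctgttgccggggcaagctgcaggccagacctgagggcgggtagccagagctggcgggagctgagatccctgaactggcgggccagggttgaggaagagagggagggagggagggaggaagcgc

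The windows are chr8:88527383-88527632 (*Nkd1*), chr1:59481897-59482146 (*Fzd7*), chr1:74771642-74771891 (*Wnt6*) and chr3:159839400-159839649 (*Wls*). The RefSeq start of *Nkd1* lies 6279 bases inside the gene as the count table gives it. That of *Fzd7* lies 277 bases before the gene's first base in the table, that of *Wls* 22 bases before, and that of *Wnt6* at the first base itself. In each RefSeq window, the 250 bases before the start were searched on both strands. The motifs were the E-boxes CAGCTG and CAGATG and the TCF/LEF motifs CTTTGAT and CTTTGAA. The first of these reads the same on both strands and was counted once, and the 2 TCF/LEF motifs differ in their last base, so that no site counts for both. Among the 4 printed stretches, only that of *Nkd1* held any of them, with CAGCTG starting 64 and 13 bases before the start. Over all 32851 RefSeq windows, 13.0% held CAGCTG at least once and 1.26% held it more than once, 14.4% held CAGATG, 3.21% CTTTGAT and 4.46% CTTTGAA. Of the 48 windows of members, 6 held CAGCTG. A match is a description of these letters only.

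The comparison asked which Wnt genes differed between control and mutant cerebella. Of the 61 members, 52 passed the filter on low counts and were tested, and 10 were called by edgeR (adjusted p under 0.01, log2 fold change past 0.5 in size). Over all 17505 genes tested, 6.66% were called, 3.63% downregulated and 3.03% upregulated; among the tested members the share was 19.2%. The secreted antagonist *Sfrp1*, the receptors *Fzd2* and *Fzd7* and the feedback inhibitor *Nkd1* were downregulated. The ligands *Wnt6*, *Wnt7a* and *Wnt7b*, the ligand carrier *Wls* and the secreted proteins *Wif1* and *Dkk3* were upregulated. All 10 were also called by DESeq2. *Sfrp1*, *Fzd2*, *Fzd7* and *Wnt6* were called in all 18 other settings. *Wif1*, *Nkd1* and *Wnt7a* lay near a threshold and lost the call in 9, 8 and 8 of them. *Wnt7b* lost it in 2, and *Wls* and *Dkk3* in 1. The settings with an adjusted p under 0.05 and without a fold threshold reuse the same edgeR fit, so no call could be lost there.

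The 3 control and 3 mutant values did not overlap for 25 of the 52 tested members, 9 below and 16 above the controls, or 48.1%, not far from the 40.5% of all genes tested (20.1% below and 20.5% above). By adjusted p alone, 12 members passed, 5 lower and 7 higher, against 13.8% of all genes (7.24% lower and 6.55% higher). The members' log2 fold changes ran from −1.31 (*Sfrp1*) to 1.32 (*Wnt6*) with a median of 0.16, and the median over all genes tested was −0.01. The 9 members under the filter were *Wnt2*, *Wnt3a*, *Wnt8a*, *Wnt8b*, *Wnt10a*, *Sfrp5*, *Dkk1*, *Dkk4* and *Rspo4*. *Wnt8a* and *Wnt3a* had at most 3 counts in every library.

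**Figure D1:**
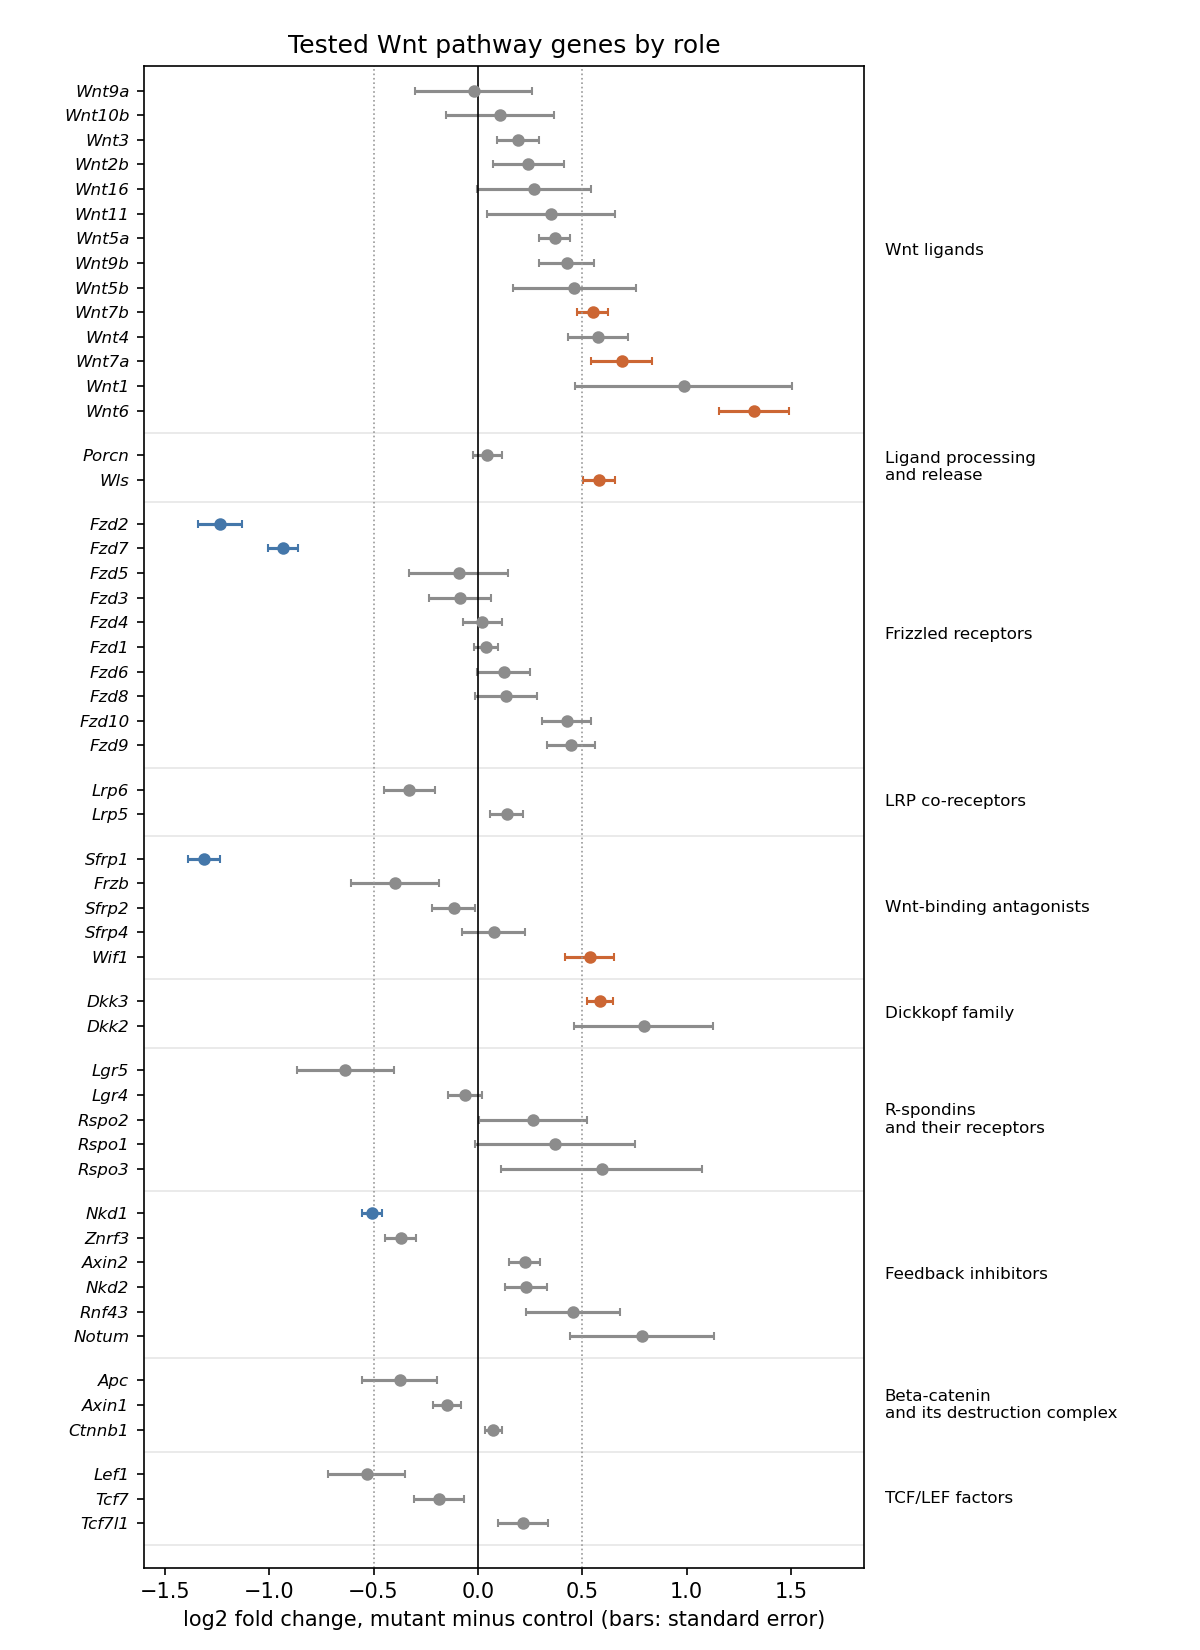
Log2 fold change (mutant minus control, edgeR, x axis) of the 52 tested members, grouped by role, with bars for the standard error and dotted lines at the fold threshold. The 10 called members are coloured, from *Sfrp1* at −1.31 to *Wnt6* at 1.32, and most ligands lie right of 0.

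Among the 19 Wnt ligands, 14 were tested, 13 of these had a positive log2 fold change, and 3 were called, all upregulated. By length-scaled level, *Wnt7b* and *Wnt5a* led the ligands in both groups (11.8 ± 0.73 and 7.37 ± 0.33 FPKM in controls, SD, n = 3), followed by *Wnt3* (5.38 ± 0.21). The remaining ligands were at or under 1.94 FPKM in the controls. *Wnt6* (ENSMUSG00000033227, GRCm38 chromosome 1, 74771892 to 74785322, plus strand) was counted at 2.66, 2.79 and 2.63 CPM in the controls and at 7.43, 6.11 and 6.71 CPM in the mutants. Every mutant library lay above 2 times any control, and the log2 fold change was 1.32 (SE 0.17, edgeR adjusted p = 0.00045), the largest rise among the tested members.

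*Wnt7b* and its paralog *Wnt7a* encode ligands known, beside their neuronal roles, for guiding blood vessels into the brain. *Wnt7b* (ENSMUSG00000022382, chromosome 15, 85535437 to 85582473, minus strand) was counted at 58.2, 54.6 and 61.8 CPM in the controls and at 93.2, 80.0 and 82.2 CPM in the mutants. The groups did not overlap, with a log2 fold change of 0.55 (SE 0.07, edgeR adjusted p = 0.000672). Without mutant 1 it was 0.48, under the fold threshold, and the call was lost. *Wnt7a* (ENSMUSG00000030093, chromosome 6, 91363981 to 91411363, minus strand) was counted at 6.43, 5.46 and 6.67 CPM in the controls and at 11.3, 9.17 and 9.39 CPM in the mutants. Its log2 fold change was 0.69 (SE 0.15, edgeR adjusted p = 0.00693).

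*Wnt5a*, a ligand known for the β-catenin-independent branch, was counted at 56.3, 56.9 and 61.1 CPM in the controls and at 70.0, 71.5 and 83.2 CPM in the mutants. All mutants lay above all controls and the adjusted p passed (0.00652, edgeR), but the log2 fold change of 0.37 (SE 0.08) was under the fold threshold. *Wnt4* was counted at 5.65, 6.63 and 7.50 CPM in the controls and at 10.7, 9.24 and 9.57 CPM in the mutants. It had no overlap either and a log2 fold change of 0.57 (SE 0.14), with an edgeR adjusted p of 0.0157 that missed the threshold. *Wnt4* was called in 3 other settings, among them the looser adjusted p under 0.05. *Wnt9b* was also apart (7.34 to 8.20 CPM in controls and 9.33 to 11.9 CPM in mutants) without passing (log2 fold change 0.42, edgeR adjusted p = 0.0406).

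*Wnt3*, the third ligand by level, had 16.2 to 17.4 CPM in the controls and 17.2 to 21.3 CPM in the mutants, which overlapped (log2 fold change 0.19, edgeR adjusted p = 0.20). *Wnt1* rested on 11, 3 and 11 counts in the controls and 11, 23 and 18 in the mutants, and its log2 fold change of 0.99 had a standard error of 0.52 (edgeR adjusted p = 0.199). *Wnt2b*, *Wnt10b*, *Wnt11* and *Wnt16* overlapped between groups, with log2 fold changes of 0.24, 0.11, 0.35 and 0.27, none past the test. *Wnt9a* was the only tested ligand with a negative estimate (−0.02). *Wnt5b* lies across *Fbxl14* on the other strand, whose count was 962% of its own, so with an unstated strand setting its value is uncertain.

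Several ligand genes sit side by side. *Wnt6* and *Wnt10a* share a strand on chromosome 1 with 6193 bases between them, *Wnt1* and *Wnt10b* lie 11706 bases apart on chromosome 15, and *Wnt3a* and *Wnt9a* (16175 bases) and *Wnt3* and *Wnt9b* (24328 bases) lie on chromosome 11. *Wnt6* was upregulated, and its neighbour *Wnt10a*, counted at 0.124 to 0.845 CPM over all libraries, was too low to test. *Wnt3* and *Wnt9b* both had positive log2 fold changes, of 0.19 and 0.42, and the difference between them was not tested.

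*Wls* (ENSMUSG00000028173, chromosome 3, 159839672 to 159938664, plus strand), through which nearly all Wnt ligands leave the cell, was counted at 53.0, 62.1 and 52.9 CPM in the controls and at 86.7, 86.7 and 77.8 CPM in the mutants. The groups were apart by more than their spread (56.0 ± 5.24 against 83.7 ± 5.16 CPM, SD, n = 3), with a log2 fold change of 0.58 (SE 0.08, edgeR adjusted p = 0.000632). *Porcn*, the enzyme that acts earlier, was counted at 68.0, 57.6 and 63.6 CPM in the controls and at 67.9, 64.3 and 63.2 CPM in the mutants. Its groups overlapped (log2 fold change 0.05, edgeR adjusted p = 0.68). Carrier and acyltransferase thus had different estimates, but the difference between them was not tested.

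**Figure D2:**
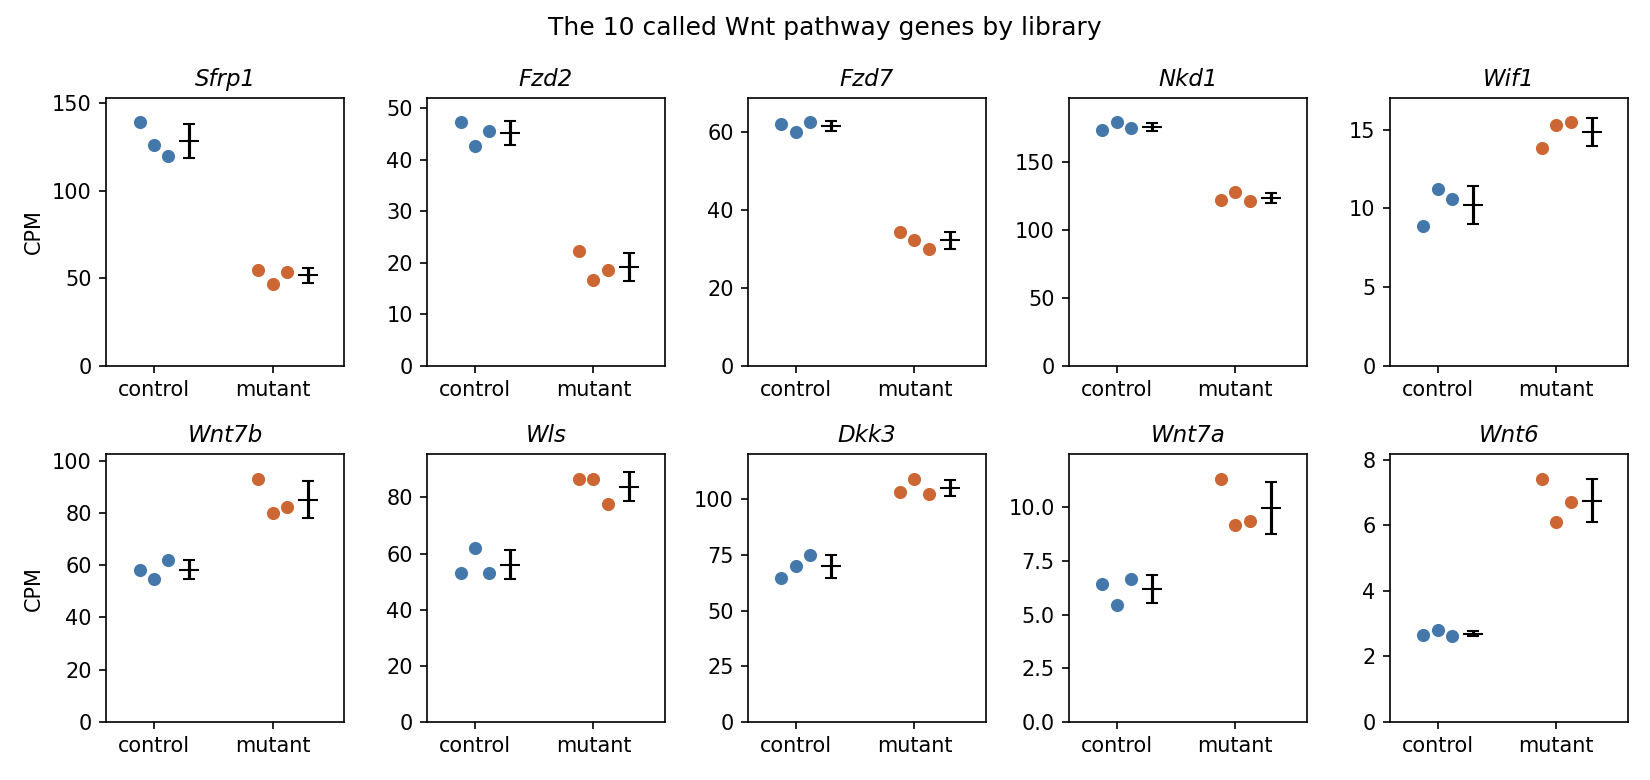
Level in CPM (y axis, from 0, a scale for each gene) of the 10 called members in the 3 control and 3 mutant libraries, with points for libraries and black bars for the group mean and SD. The groups of every gene lie apart, with *Sfrp1*, *Fzd2* and *Fzd7* falling most and *Wnt6* rising most.

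All 10 Frizzled receptors were tested. *Fzd2* and *Fzd7*, which encode closely related receptors for Wnt ligands, were the only ones called, and both were downregulated. *Fzd2* (ENSMUSG00000050288, chromosome 11, 102604396 to 102608058, plus strand) was counted at 47.2, 42.7 and 45.5 CPM in the controls and at 22.2, 16.7 and 18.5 CPM in the mutants. The highest mutant lay far below the lowest control, and the log2 fold change was −1.24 (SE 0.11, edgeR adjusted p = 4.84e-05). *Fzd7* (ENSMUSG00000041075, chromosome 1, 59482424 to 59486955, plus strand) was counted at 61.9, 60.0 and 62.4 CPM in the controls and at 34.2, 32.1 and 30.0 CPM in the mutants. Its group means were 61.4 ± 1.26 and 32.1 ± 2.12 CPM (SD, n = 3), with a log2 fold change of −0.94 (SE 0.07, edgeR adjusted p = 2.69e-05).

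The 2 most abundant Frizzleds by FPKM were not called. *Fzd1* was counted at 92.6, 92.9 and 85.4 CPM in the controls and at 93.0, 96.7 and 88.7 CPM in the mutants (log2 fold change 0.04, SE 0.06, edgeR adjusted p = 0.656). *Fzd3*, known for axon guidance through the planar polarity branch, was counted at 168, 225 and 209 CPM in the controls and at 165, 240 and 163 CPM in the mutants (log2 fold change −0.08, SE 0.15, edgeR adjusted p = 0.718). In both genes the groups overlapped, and *Fzd3* was lowest within each group in the libraries with high counts of Y-chromosome genes. With the Y-chromosome level as a covariate, the log2 fold change of *Fzd3* was 0.031. *Fzd9* and *Fzd10* were higher in every mutant than in any control, with log2 fold changes of 0.44 (edgeR adjusted p = 0.0191) and 0.42 (edgeR adjusted p = 0.025), and neither passed. *Fzd4*, *Fzd5*, *Fzd6* and *Fzd8* had estimates between −0.09 and 0.13.

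The make-up of the Frizzled pool, taken as shares of the summed FPKM of the 10 receptors, followed these values. *Fzd2* and *Fzd7* together made up 30.7% ± 1.35 of it in the controls and 16.5% ± 1.63 in the mutants (SD, n = 3), while *Fzd1* went from 25.5% to 29.6%. The sum itself was 83.7, 84.8 and 82.5 FPKM in the controls and 74.9, 77.5 and 70.9 FPKM in the mutants, and the summed ligands were 36.0, 35.3 and 39.1 FPKM against 53.0, 47.0 and 52.4 FPKM. Neither sum overlapped between groups, the ligand sum being higher and the receptor sum lower in the mutants. Of all single genes tested, 40.5% did not overlap either. FPKM are relative to the library total, and the part of cell make-up in these sums was not tested. *Wnt5a* and *Wnt7b* made up a like share of the ligand sum in both groups (52.1% and 52.9%), and *Wnt6* 3.33% and 6.04%. The sums describe mRNA and give no amount of protein.

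**Figure D3:**
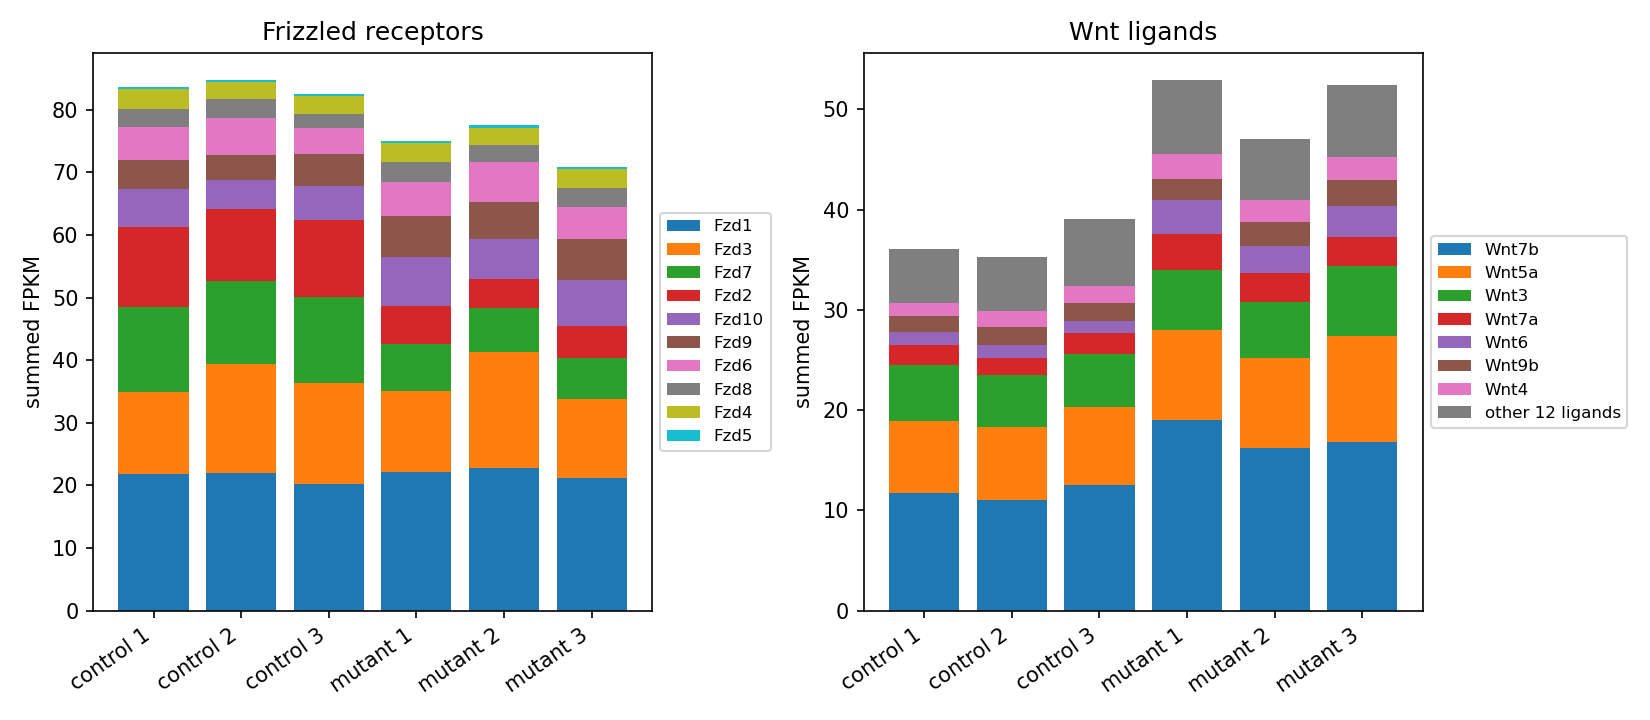
Summed FPKM (y axis) of the Frizzled receptors (left) and the Wnt ligands (right), stacked by gene, for each control and mutant library. *Fzd2* and *Fzd7* take smaller parts in the mutants, and the ligand sum is higher (47.0 to 53.0 FPKM against 35.3 to 39.1 FPKM).

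The co-receptors did not pass. *Lrp5* had 30.1 to 31.3 CPM in the controls and 31.5 to 35.8 CPM in the mutants (log2 fold change 0.14, edgeR adjusted p = 0.231). *Lrp6* was counted at 89.7, 115 and 104 CPM in the controls and at 73.7, 98.9 and 73.4 CPM in the mutants, which overlapped (log2 fold change −0.33, SE 0.12, edgeR adjusted p = 0.0769). *Lrp6* was lowest within each group in the libraries with high counts of Y-chromosome genes. With the Y-chromosome level as a covariate, its log2 fold change was −0.24 (edgeR adjusted p = 0.00575), still under the fold threshold.

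Antagonists moved in both directions. *Sfrp1* (ENSMUSG00000031548, chromosome 8, 23411502 to 23449632, plus strand), which encodes a secreted protein with a Frizzled-like domain that binds Wnt, had the largest fall of the tested members. Its values were 139, 126 and 120 CPM in the controls and at 54.9, 46.8 and 53.5 CPM in the mutants. No mutant came within reach of the controls, and the gene was 2.48-fold lower (log2 fold change −1.31, SE 0.08, edgeR adjusted p = 6.21e-06). Its relative *Sfrp2* was counted at 15.2, 14.1 and 17.2 CPM in the controls and at 14.8, 14.0 and 14.1 CPM in the mutants, which overlapped (log2 fold change −0.12, edgeR adjusted p = 0.457). *Frzb* had lower values in all mutants (2.21 to 3.05 CPM against 3.25 to 3.78 CPM) and did not pass (log2 fold change −0.40, edgeR adjusted p = 0.20), and *Sfrp4* overlapped (log2 fold change 0.08).

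*Wif1* (ENSMUSG00000020218, chromosome 10, 121033960 to 121100650, plus strand), a secreted Wnt-binding protein of another structure, went the other way. Its values were 8.90, 11.2 and 10.6 CPM in the controls and at 13.8, 15.3 and 15.5 CPM in the mutants. The groups did not overlap, with a log2 fold change of 0.54 (SE 0.12, edgeR adjusted p = 0.0086), and the call was lost when any one library was left out. Within the summed FPKM of the Wnt-binding antagonists, *Sfrp1* took 67.5% in the controls and 43.6% in the mutants and *Wif1* 9.73% and 22.6%. The sum was 42.3 to 44.8 FPKM in the controls and 25.7 to 27.9 FPKM in the mutants.

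*Dkk3* (ENSMUSG00000030772, chromosome 7, 112116017 to 112159057, minus strand) is a divergent Dickkopf relative that, unlike Dickkopf 1, is not an established LRP antagonist. Its values were 64.7, 70.2 and 75.0 CPM in the controls and at 103, 109 and 102 CPM in the mutants. The groups were far apart for their spread, with a log2 fold change of 0.58 (SE 0.06, edgeR adjusted p = 0.000204). *Dkk2* was counted at 1.43, 1.36 and 0.833 CPM in the controls and at 2.59, 2.21 and 1.49 CPM in the mutants, and its log2 fold change of 0.79 (SE 0.33) did not pass (edgeR adjusted p = 0.111). *Dkk1* and *Dkk4* were too low to test.

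The R-spondins *Rspo1*, *Rspo2* and *Rspo3* were between 0.52 and 3.63 CPM in every library, and all overlapped between groups. Of their receptors, *Lgr4* had 56.7 to 67.9 CPM in the controls and 56.4 to 64.3 CPM in the mutants (log2 fold change −0.06). *Lgr5* was counted at 6.56, 7.08 and 8.78 CPM in the controls and at 3.17, 5.92 and 5.41 CPM in the mutants. Its groups did not overlap, but its adjusted p of 0.0718 (edgeR, log2 fold change −0.64, SE 0.23) did not pass, and an overlapping gene on the other strand held 49.0% of its count.

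*Axin2*, *Nkd1*, *Nkd2*, *Notum*, *Rnf43* and *Znrf3* encode inhibitors that canonical Wnt signalling is known to induce, so that they serve elsewhere as readouts of the pathway. Only *Nkd1* was called. *Nkd1* (ENSMUSG00000031661, chromosome 8, 88521354 to 88594884, plus strand), whose promoter is shown above, was counted at 173, 179 and 175 CPM in the controls and at 122, 128 and 121 CPM in the mutants. The spread within groups was narrow (176 ± 3.08 and 124 ± 3.58 CPM, SD, n = 3), and the log2 fold change of −0.51 (SE 0.05, edgeR adjusted p = 7.08e-05) lay just past the fold threshold. Its estimate ran from −0.52 to −0.49 over the 18 other settings.

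The other 5 feedback inhibitors did not follow one direction. *Axin2*, often taken as a general target of the pathway, was counted at 70.4, 60.0 and 71.5 CPM in the controls and at 82.3, 75.3 and 78.1 CPM in the mutants. All mutants lay above all controls, and the test did not pass (log2 fold change 0.22, SE 0.07, edgeR adjusted p = 0.0539). The ubiquitin ligase *Znrf3* was counted at 57.3, 54.4 and 50.4 CPM in the controls and at 41.2, 40.3 and 43.9 CPM in the mutants. It was lower in every mutant, with an edgeR adjusted p of 0.00534 and a log2 fold change of −0.37 (SE 0.07) that was under the fold threshold. *Nkd2*, *Notum* and *Rnf43* had positive estimates of 0.23, 0.79 and 0.46, none past the test (edgeR adjusted p = 0.13, 0.128 and 0.171), and genes overlapping *Notum* on the other strand held 29.9% of its count. The ratio of *Nkd1* to *Axin2*, both in FPKM, was 3.18 in the controls and 1.91 in the mutants on average. This follows from the opposite directions of these genes and is no further result.

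**Figure D4:**
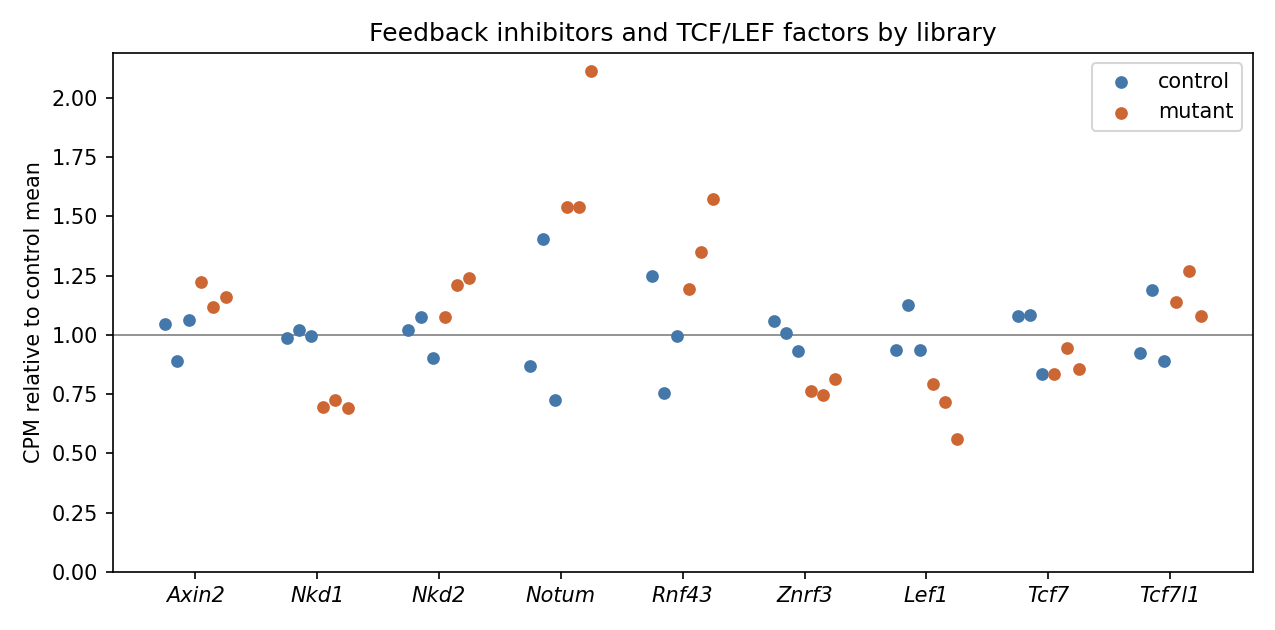
CPM of the feedback inhibitors and the TCF/LEF factors in each library relative to the gene's control mean (y axis, 1 is the control mean), with points for the 3 control and 3 mutant libraries of each gene. *Nkd1* and *Znrf3* lie below the controls in every mutant and *Axin2* above them, and of the 9 genes only *Nkd1* was called.

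β-catenin, the member with the highest level (mean 159 FPKM over all libraries), was counted at 815, 794 and 822 CPM in the controls and at 853, 854 and 851 CPM in the mutants. The mutants were above the controls, but by a log2 fold change of only 0.07 (SE 0.04, edgeR adjusted p = 0.23). *Apc*, a scaffold of the destruction complex, was counted at 481, 698 and 644 CPM in the controls and at 383, 618 and 406 CPM in the mutants. It varied more within groups than between them and was highest where the Y-chromosome genes were low (log2 fold change −0.37, SE 0.18, edgeR adjusted p = 0.159). With the Y-chromosome level as a covariate its log2 fold change was −0.24 (edgeR adjusted p = 0.00168). *Axin1* was at −0.15 (edgeR adjusted p = 0.146).

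The nuclear partners of β-catenin did not pass either. *Lef1* was counted at 5.52, 6.63 and 5.51 CPM in the controls and at 4.66, 4.23 and 3.29 CPM in the mutants, lower in each mutant (log2 fold change −0.53, SE 0.18, edgeR adjusted p = 0.0599). *Tcf7* had 14.9 to 19.4 CPM in the controls and 14.9 to 16.8 CPM in the mutants (log2 fold change −0.19), and *Tcf7l1* 23.3 to 31.2 CPM and 28.3 to 33.4 CPM (log2 fold change 0.22), both with overlap. *Lef1* is also known from brain vessels, and the endothelial markers included no called gene, with 6 of 9 lower and a summed level of 400 to 445 CPM in the controls and 392 to 406 CPM in the mutants.

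Of 68 further Wnt pathway genes on 3 lists, 67 were tested, and 3 were downregulated and 2 upregulated, or 7.46%, near the 6.66% of all genes. Of the 33 other intracellular genes, the APC-binding *Amer2* (168, 228 and 232 CPM in controls, 97.2, 152 and 96.9 CPM in mutants) and the co-repressor *Tle2* (36.2, 33.2 and 32.7 CPM, then 23.4, 20.5 and 22.9 CPM) were downregulated. Their log2 fold changes were −0.86 (SE 0.18) and −0.61 (SE 0.09), with edgeR adjusted p of 0.00584 and 0.000792. Like *Lrp6*, *Amer2* was lowest within each group in the libraries with high counts of Y-chromosome genes. With the Y-chromosome level as a covariate, 4 of the further pathway genes were downregulated. The estimate of *Amer2* itself in that fit is not given here. Of the 15 extracellular and membrane genes tested, the glypican *Gpc3* was upregulated (39.6, 38.8 and 29.6 CPM, then 64.3, 55.7 and 50.8 CPM, log2 fold change 0.66, SE 0.12, edgeR adjusted p = 0.00351). Of the 19 non-canonical genes, *Ror1*, a receptor for Wnt5a, was downregulated (19.4, 24.0 and 25.6 CPM, then 13.3, 13.1 and 12.4 CPM, log2 fold change −0.83, SE 0.11). The formin *Daam2* was upregulated (56.1, 54.0 and 53.8 CPM, then 98.1, 85.8 and 90.2 CPM, log2 fold change 0.74, SE 0.06).

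Cell type markers moved in the same libraries as both sets of calls. Beside *Sfrp1*, *Fzd2*, *Fzd7* and *Nkd1*, 7 of 8 markers of granule neuron progenitors were downregulated, and their summed level was 1241 to 1359 CPM in the controls and 570 to 591 CPM in the mutants. Of the 7 granule neuron markers tested, 5 were downregulated (2245 to 2279 CPM, then 1185 to 1325 CPM). The medians of these lists were −1.24 and −0.79 on the log2 scale, with *Atoh1*, which defines the progenitors, at −6.40. The part of these cells in the falls was not tested.

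Beside the upregulated members, 5 of 8 Purkinje cell markers (1552 to 1678 CPM in controls, 2155 to 2641 CPM in mutants), 3 of 8 markers of astrocytes and Bergmann glia (3581 to 3627 CPM, then 4668 to 5024 CPM), 5 of 6 of the oligodendrocyte lineage and 3 of 9 of the meninges (748 to 787 CPM, then 922 to 1142 CPM) were upregulated. The log2 medians of these lists were 0.63, 0.41, 0.70 and 0.37. Not all of these markers rose: 3 of 9 of the meninges and 1 of 6 of the oligodendrocyte lineage had negative estimates. Of 6 markers of GABAergic progenitors and interneurons, 3 were upregulated and 1 downregulated. Mural cell markers included no called gene. Of 6 markers of cerebellar nuclear neurons and unipolar brush cells, 1 was upregulated and 2 had negative estimates. Their summed level was lower in the mutants (203 to 213 CPM in controls, 180 to 181 CPM in mutants). Choroid plexus markers, of which 1 of 7 was downregulated and none upregulated, summed to 131 to 199 CPM in the controls and 35.1 to 782 CPM in the mutants, with mutant 3 far above and mutant 2 far below. None of the 5 hindbrain markers and 1 of 5 midbrain markers passed the filter. The part of these cells in the rises was not tested.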

How the data were processed

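Bulk poly-A RNA of cerebellum was measured in 6 samples, which were grouped by their labels. The authors deposited raw counts per gene and FPKM values. Per the labels, reads were aligned to mm10 with HISAT2 2.0.5 and counted with featureCounts 1.5.0-p3; the annotation release and strand setting are not given in the sources used here. The authors computed FPKM from these counts and the gene length.

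From the counts, edgeR 4.0.16 in R 4.3.3 (filterByExpr, TMM, glmQLFit, glmQLFTest) was fitted over 17505 genes, holding 99.8% of the counts, with Benjamini-Hochberg adjustment over all of them. The call needed both an adjusted p under 0.01 and a fold past 0.5 on the log2 scale. Depth was 15391854 to 17178478 counts per library; a floor of 3 counts covers counting error only. Replicates differed by more than sampling noise. No label says that they came from separate animals, so p-values measure the spread between these samples, which may be technical. With 3 against 3, an exact permutation test cannot go below 0.1.

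Members, pathway lists and marker lists were chosen with earlier results of these data known. Named were all members, up to 6 called genes per pathway list, and *Tox3* and *Atoh1*. Alternatives were DESeq2 1.42.0, other scalings, filters and thresholds, limma 3.58.1 on log2(FPKM + 1) and log2(FPKM + 0.1), a replicate block, a Y-chromosome covariate and each library left out. The fits were tested on simulated data. Overlapping genes may share reads.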

Additional observations from a re-analysis of the deposited data

How the results depend on the processing

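Over the 52 tested members and 18 other settings, 881 estimates kept their direction and their side of the thresholds. A further 29 lost a call, 6 gained one and 18 turned sign, the last all in genes that were not called. The settings with an adjusted p under 0.05 and without a fold threshold reuse the edgeR fit of the report. No call could be lost and no sign could turn in them. The edgeR fit of the report gave 635 downregulated and 530 upregulated genes. limma gave 360 and 243 on log2(FPKM + 1) and 416 and 297 on log2(FPKM + 0.1), a threshold on adjusted p alone gave 1268 and 1147, glmTreat gave 145 and 30, and an adjusted p under 0.05 gave 838 upregulated genes. Among members, glmTreat left 1 upregulated gene of 6, *Wnt6*. Of the other pathway genes, log2(FPKM + 1) gave 0 downregulated and 1 upregulated, log2(FPKM + 0.1) 1 upregulated, adjusted p alone 9 downregulated, and glmTreat 0 and 0. These counts follow from stricter or looser thresholds or another test, and the cause of single lost calls was not tested.

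Leaving out 1 library at a time gave 3 to 5 downregulated and 3 to 5 upregulated members, 492 to 778 and 349 to 569 genes over all, and 2 to 3 and 1 to 2 other pathway genes. Without mutant 1, 3 members were upregulated, and *Wnt7b* (0.48), *Wnt7a*, *Wif1* and *Nkd1* lost the call. *Wif1* lost it without any one library, *Wnt7a* without any but mutant 2, and *Nkd1* also without control 2 or mutant 3. Without mutant 2, *Apc* was also called (−0.61, edgeR adjusted p = 0.00513). Estimates near 0 turned sign, and ranged over these fits as follows: *Fzd3* −0.28 to 0.013, *Porcn* −0.016 to 0.10, *Fzd4* −0.021 to 0.083, *Fzd8* −0.0018 to 0.25, *Sfrp4* −0.025 to 0.17, *Wnt16* −0.11 to 0.44, *Wnt9a* −0.27 to 0.25, *Fzd5* −0.17 to 0.047 and *Wnt10b* −0.047 to 0.24. With the Y-chromosome covariate, *Fzd3*, *Fzd4* and *Wnt9a* were at 0.031, −0.024 and 0.0024, and 3 members were downregulated and 7 upregulated.

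The replicate numbers in the titles are not stated to pair animals, so they were not taken as pairs. Deviations of same-numbered libraries correlated at 0.29, 0.33 and −0.17, and those of control 1 and mutant 3 at 0.30. These correlations cannot tell whether the numbers pair animals. Across groups, libraries alike in the level of Y-chromosome genes correlated at 0.23 to 0.33, and libraries unlike in it at −0.47 to −0.13. The deviations thus followed the Y-chromosome level rather than the replicate number. Sex and a technical factor aligned with it cannot be told apart here. With the replicate block, 696 genes were downregulated and 561 upregulated, 4 and 6 among members and 4 and 2 among other pathway genes. The floor of 3 counts, at most 0.195 CPM at this depth, was a chosen setting and not a measured limit of detection.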
